A study of Mus musculus with 72 samples.

Results

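Expression of 31 genes of brain endothelial cells and the blood-brain barrier was examined in the hippocampus of mice that had learned, or recalled, that a chamber is paired with a foot shock. The genes were listed by symbol, 32 in all, and each was read from the probe set annotated to that symbol alone, taking the probe set with the higher mean where there were more. Ly6c1 had no such probe set, and Foxq1 had 2. The 31 measured genes stood among 35556 probe sets and 18820 symbols with a probe set of their own. The list was drawn up with earlier results of these data known, so a member that moves is no independent sign that vascular genes as a class respond.

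All 72 mice were 2-month-old C57BL/6J males, handled on 3 days and kept in a 12 h light period that began at Zeitgeber time ZT0. There were 9 mice in each of 8 groups. Fear conditioned mice received a single 2 s, 1.5 mA foot shock in a new chamber at ZT3, and dissection followed after 30 min in the FC30 group, 4 h in FC4, 12 h in FC12 and 24 h in FC24. RT30 mice were trained likewise, placed in that chamber again for 5 min 24 h later and dissected 30 min after this test of retrieval. CC30, CC4 and CC12 mice were handled but never trained and were dissected at the matching times of day. CC4 and FC4 therefore fell in the light, when mice rest, and CC12 and FC12 in the dark, when they are active. CC30 was the control of FC30, and here also of FC24 and RT30. Each value is from the whole hippocampus of 1 mouse. In such bulk tissue fewer endothelial cells and less RNA in each cell cannot be told apart.

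Endothelial cells line brain capillaries and are closely sealed to each other by tight junctions. Dedicated carriers take glucose and some hormones across, and pumps act on some drugs. Transcription factors of the SOXF family (Sox7, Sox17, Sox18) and the ETS family (Erg, Ets1) set endothelial identity. VEGF receptors, angiopoietin receptors and the adhesion molecules of the junctions keep the vessel wall intact. Pericytes and smooth muscle cells, together called mural cells, wrap the vessels from outside.

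Values are RMA log2 signals from which the first principal component, 17.4% of the variance, was subtracted. A difference of 1 is a doubling. A gene was called where its two-sided limma p, adjusted by the Benjamini-Hochberg method for the whole array, was under 0.1. As a check of the labels, 6 of 6 immediate-early genes (Fos, Arc, Dusp1, Egr2, Junb and Nr4a1) rose in FC30 and in RT30 against CC30, with medians of 0.79 and 0.76, and 0 of 6 were called in FC4, FC12 or FC24 against their controls. The 31 genes had means of 5.13 (Sox7) to 10.51 (Slc2a1) over all arrays, each above the log2 value of 4.16 under which the dimmest 25% of probe sets lay. Members of the list varied together between mice of a group, as described at the end. There were 6 arrays that stood apart from the rest of their group on the first or second component: CC30 mouse 3, FC30 mouse 4, CC12 mouse 2, FC12 mouse 2, FC24 mouse 4 and CC4 mouse 8.

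Apold1 rose after training and retrieval, and Cldn5 fell after retrieval and from CC30 to CC4. Since these are the members called in the most comparisons of groups within the light period, their promoter sequences are shown. Both are the 250 bases before the RefSeq start in GRCm38.p6, 5′ to 3′ on the gene's strand, with the motif matches described next in capitals.
Apold1 (chr6:134981751-134982000, plus strand): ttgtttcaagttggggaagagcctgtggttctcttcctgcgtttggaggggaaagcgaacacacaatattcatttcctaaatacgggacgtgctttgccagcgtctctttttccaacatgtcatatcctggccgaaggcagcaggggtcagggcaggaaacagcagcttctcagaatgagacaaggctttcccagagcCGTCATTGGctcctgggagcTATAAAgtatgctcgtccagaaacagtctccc
Cldn5 (chr16:18776597-18776846, plus strand): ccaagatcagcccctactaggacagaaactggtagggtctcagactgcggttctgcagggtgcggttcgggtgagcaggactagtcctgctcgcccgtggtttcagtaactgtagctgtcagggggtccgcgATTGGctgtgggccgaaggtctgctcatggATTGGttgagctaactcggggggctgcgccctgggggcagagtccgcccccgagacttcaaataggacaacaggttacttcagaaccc
The Apold1 window held TGACG, the core of the site of CREB, on the reverse strand from -52 to -48, CCAAT on the reverse strand from -48 to -44, which shares 1 base with it, and TATAAA from -32 to -27. The Cldn5 window held CCAAT on the reverse strand from -118 to -114 and from -88 to -84, but TGACG and TATAAA were not in it. The E-box bound by CLOCK and BMAL1 (CACGTG) was searched for too and was in neither window. A promoter was at hand for 20 of the 31 genes. TGACG on either strand was in 5 of these 20 and in 17.8% of all 32851 promoters, TATAAA on the gene's strand in 2 and 7.59%, CCAAT on either strand in 8 and 33.8%, and CACGTG in 0 and 6.02%. A match is a run of letters and was not tested as a bound site.

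The first question was what vascular genes do within 30 min of learning or of retrieval. Sox18 fell and Apold1 rose at both times. Cldn5 and She were lower in RT30 than in CC30, and She had a negative difference in FC24 already. The remaining members of the list, including all 7 receptors and all 5 transporters, were called at neither time. In FC30 against CC30, 1 member fell where 0.0703% of all probe sets did, and 1 rose where 0.186% did. In RT30 against CC30, 3 fell against a background of 0.0928%, and 1 rose against 0.186%. The median difference of the 31 genes was -0.04 after training, with 23 below 0, and -0.045 after retrieval, with 20 below 0. All probe sets had a median of -0.002 in both, with 51.3% and 51.8% below 0. Of 10 astrocyte markers 9 lay below 0 in both. Of 59 other endothelial genes 32 and 34 did, and of 14 mural cell genes 6 and 7. Both comparisons use the CC30 mice, so a high or low CC30 value enters both.

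**Figure D1:**
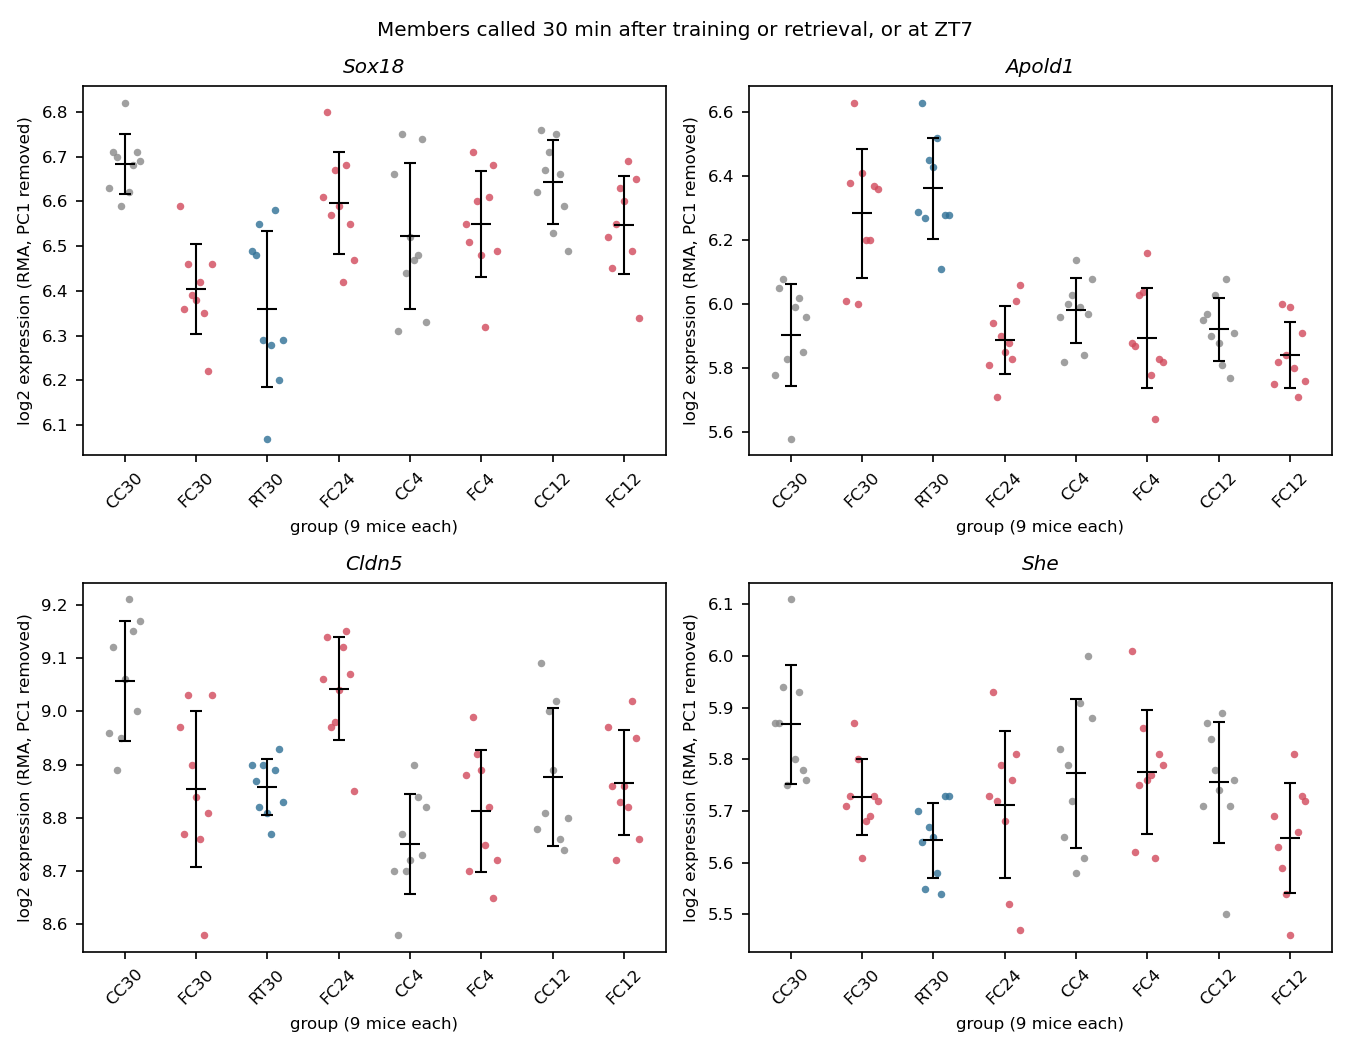
Log2 expression of Sox18, Apold1, Cldn5 and She (y axis, RMA with PC1 removed, each panel with its own scale) in every mouse of the 8 groups (x axis). Dots are mice (grey untrained, red fear conditioned, blue retrieval), and bars are the mean ± SD of 9 mice. Apold1 stands high in FC30 and RT30, Sox18 low in these groups, and Cldn5 high in CC30 and FC24.

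Among the transcription factors, Sox18, which directs early vessel and lymphatic growth, ran from 6.59 to 6.82 in CC30 mice (median 6.69), from 6.22 to 6.59 in FC30 mice (median 6.39) and from 6.07 to 6.58 in RT30 mice (median 6.29). All 9 RT30 mice and 8 of 9 FC30 mice were below every CC30 mouse. Sox18 fell by 0.28 on the log2 scale in FC30 (SE 0.04, 1.21-fold, adjusted p = 0.00372) and fell by 0.32 in RT30 (SE 0.06, 1.25-fold, adjusted p = 0.0283). Its relative Sox17, an arterial factor, had a median of 5.51 in CC30 (5.26 to 5.66), 5.26 in FC30 (4.94 to 5.47) and 5.28 in RT30 (4.98 to 5.47). The groups overlapped, and the differences of -0.18 and -0.21 were not called (adjusted p = 0.603 and 0.436). Sox7, the third SOXF gene, had 0.04 and 0.02. Foxq1, a forkhead factor found in brain endothelium, had -0.14 in RT30 (adjusted p = 0.67), and its dimmer probe set lay between -0.08 and 0.09 over all comparisons of groups. Erg had -0.06 in both, and Ets1 -0.01 and -0.05.

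Among the junction genes, Cldn5, which encodes claudin-5, the main sealing protein of the barrier's tight junctions, had values of 8.89 to 9.21 in CC30 mice (median 9.06), 8.77 to 8.93 in RT30 mice (median 8.87) and 8.58 to 9.03 in FC30 mice (median 8.84). The RT30 mice were the tightest group, and 6 of 9 were below every CC30 mouse. Cldn5 fell by 0.20 after retrieval (SE 0.04, 1.15-fold, adjusted p = 0.0673). The difference after training was also -0.20, but with an SE of 0.06 and an adjusted p of 0.391 it was not called, and it passed in 1 of 11 other settings, the fit of all 8 groups together. Ocln, which encodes occludin, had 0.06 and 0.05. Cdh5, the cadherin of adherens junctions, had -0.09 and 0.00. Esam, Pecam1 and Emcn, adhesion and surface glycoproteins, lay between -0.10 and -0.04.

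Apold1, an endothelial early response gene, was the induced exception. Its lowest, median and highest values were 5.58, 5.96 and 6.08 in CC30, 6.00, 6.36 and 6.63 in FC30, and 6.11, 6.29 and 6.63 in RT30. Every RT30 mouse was above every CC30 mouse, and so were 7 of 9 FC30 mice. Apold1 was 0.38 higher in FC30 (SE 0.08, 1.30-fold, adjusted p = 0.0771) and 0.46 higher in RT30 (SE 0.07, 1.37-fold, adjusted p = 0.00593). The call in FC30 ended without removal of the first component (adjusted p = 0.117) and in the t-test of the study's methods with Benjamini-Hochberg adjustment (adjusted p = 0.166). The call in RT30 held in all 11 settings.

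She, which encodes an SH2-domain adaptor protein, had medians of 5.87 in CC30 (5.75 to 6.11), 5.72 in FC30 (5.61 to 5.87) and 5.65 in RT30 (5.54 to 5.73). All RT30 mice were below all CC30 mice. She fell by 0.22 in RT30 (SE 0.05, 1.17-fold, adjusted p = 0.053), and had -0.14 in FC30 (adjusted p = 0.481). Mice dissected 24 h after training with no retrieval had a median of 5.73 and a difference of -0.16 from CC30 (SE 0.06, adjusted p = 1.0), with 8 of 9 below the CC30 mean, and RT30 differed from them by -0.07 (adjusted p = 0.933). A change of She with retrieval itself is thus not shown. Without the 6 arrays that stood apart the value in RT30 was again -0.22 but was not called (adjusted p = 0.108). The other members of its class were not called: Egfl7, a secreted matrix factor, had -0.10 and -0.12, Vwf, which binds platelets, -0.03 and -0.03, Nos3, the endothelial nitric oxide synthase, -0.02 and -0.04, and Itm2a, a membrane protein of brain endothelium, -0.02 and 0.02.

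The receptors moved little. The VEGF receptors Kdr and Flt1, the angiopoietin receptor Tek and its partner Tie1, the TGF-beta co-receptor Eng, the guidance receptor Robo4 and the phosphatase Ptprb, which acts on Tek, lay between -0.09 and 0.00 in FC30 and between -0.09 and 0.02 in RT30. Of the transporters, the glucose carrier Slc2a1 had 0.09 in both (adjusted p = 0.725 and 0.703), and the thyroid hormone carrier Slco1c1 had 0.12 in FC30 (adjusted p = 0.603) and 0.05 in RT30. The pericyte gene Rgs5 had 0.01 and 0.06.

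**Figure D2:**
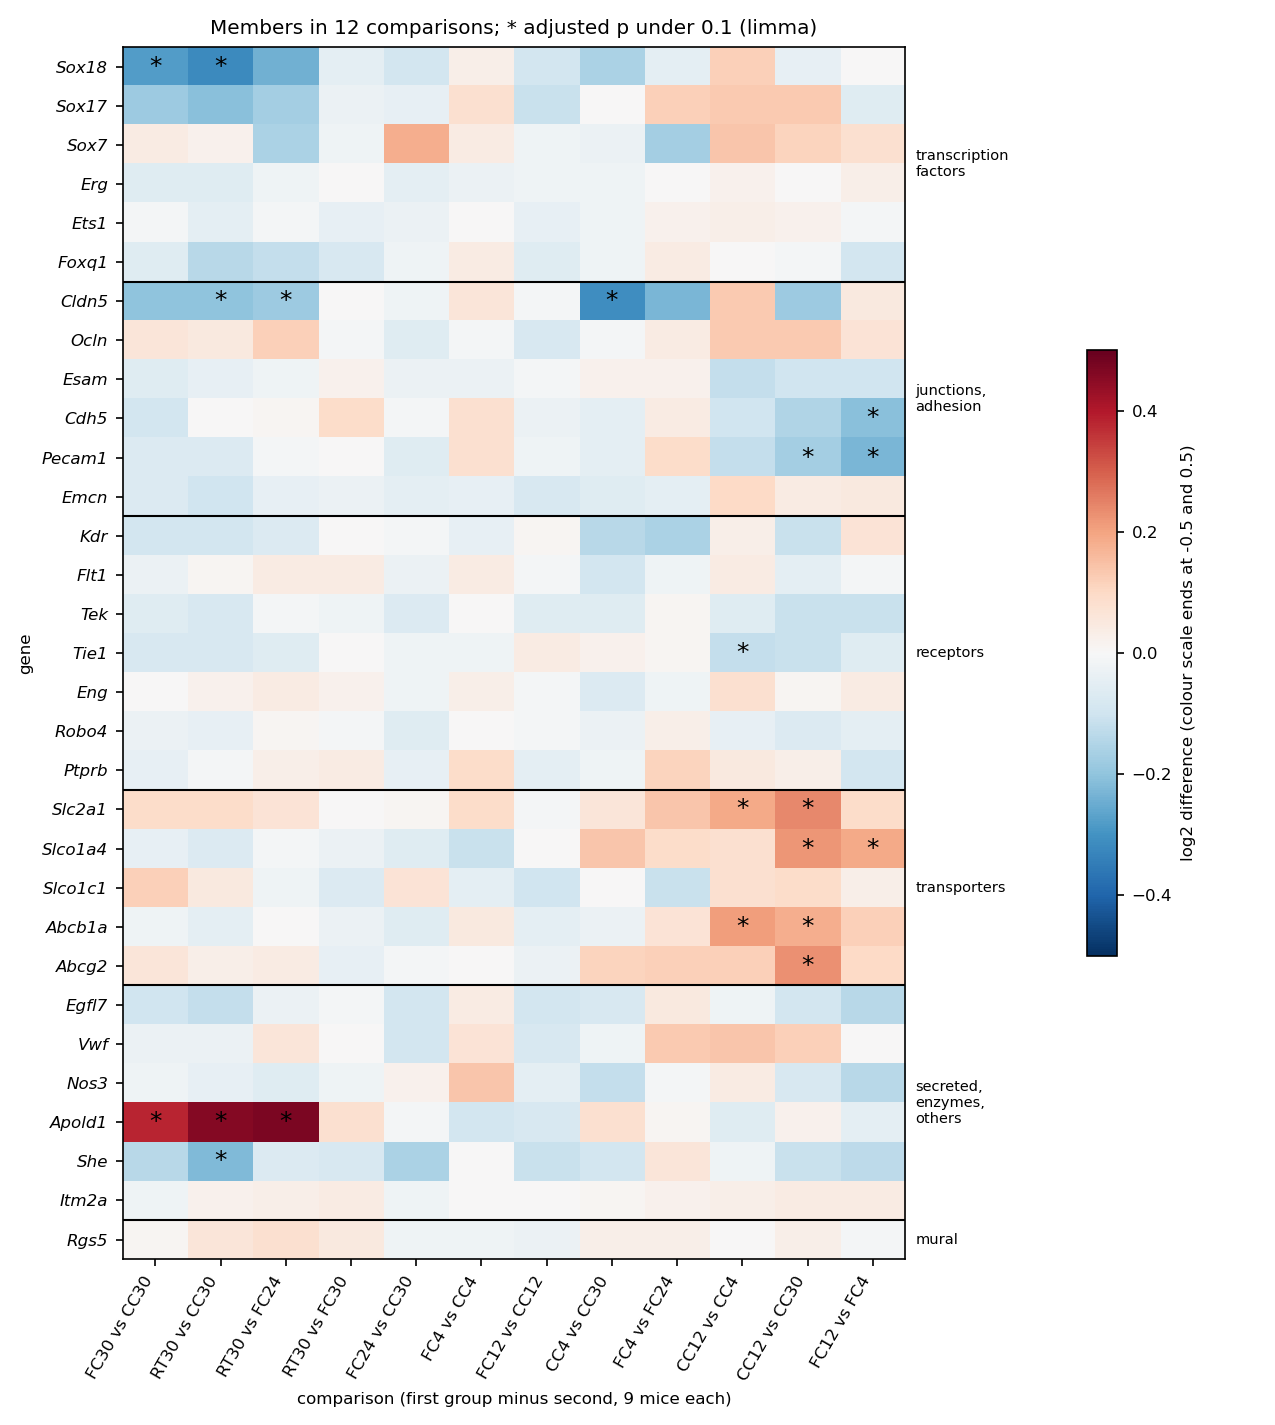
Log2 differences of the 31 genes (rows, grouped by role) in 12 comparisons of groups (columns), blue lower and red higher in the first group, on a scale that ends at -0.5 and 0.5. Stars mark adjusted p under 0.1. Apold1 at FC30 and RT30 is the deepest red, and the 5 transporters are red in both columns that compare CC12 with untrained mice of the light period.

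RT30 was also set against FC24, trained mice dissected a day after training with no retrieval. These share no mouse with the comparison of FC30 with CC30. Apold1 ran from 5.71 to 6.06 in FC24 (median 5.88), below all RT30 mice, and was 0.47 higher in RT30 (SE 0.06, adjusted p = 8.38e-04). Cldn5 ran from 8.85 to 9.15 in FC24 (median 9.06) and fell by 0.18 in RT30 (SE 0.04, adjusted p = 0.0839), with 9 of 9 RT30 mice below the FC24 mean. That call ended with the first component as a covariate (adjusted p = 0.249) and in the fit of all 8 groups (adjusted p = 0.176). Sox18 had -0.24 (SE 0.07), again with 9 of 9 RT30 mice below the FC24 mean, but was not called (adjusted p = 0.376). Thus 1 member fell, where 0.0309% of all probe sets did, and 1 rose, where 0.121% did. RT30 against FC30 gave no call in limma among the members or among all probe sets (0.0%), with 1 member at an unadjusted p under 0.05. The largest differences there were 0.09 in Cdh5, 0.08 in Apold1 and -0.08 in She.

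The members' differences in FC30 against CC30 and in RT30 against FC24, which share no array, had the same sign in 22 of 31 genes, beside 57.3% of all probe sets. Across the 31 genes the differences had a correlation of 0.85, or 0.71 without Apold1, beside 0.24 over all probe sets. Genes of a cell type that vary together are not independent. The list was also drawn up with earlier results of these data known, so these are descriptions.

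No member was called later in consolidation. FC4 against CC4, FC12 against CC12 and FC24 against CC30 each gave 0 of 31 in limma and in the t-test of the methods. Limma called 0.0% of all probe sets in each, but local false discovery rates called some, as given at the end. In each, 2 members had an unadjusted p under 0.05. The largest differences were 0.14 in Nos3, -0.11 in Slco1a4 and 0.09 in Ptprb at 4 h (adjusted p = 0.922 in all 3), -0.11 in Sox17 and She and -0.10 in Slco1c1 at 12 h (adjusted p = 1.0 in all 3), and 0.18 in Sox7, -0.16 in She and -0.09 in Vwf at 24 h (adjusted p = 1.0 in all 3). Apold1 was back at medians of 5.87 in FC4, 5.82 in FC12 and 5.88 in FC24. Sox18 had medians of 6.55, 6.55 and 6.59, beside 6.48, 6.66 and 6.69 in the controls CC4, CC12 and CC30. At 4 h, 13 of 31 members lay below 0 with a median of 0.002, where 55.9% of all probe sets did with a median of -0.008. At 12 h, 28 of 31 members lay below 0 with a median of -0.028, and at 24 h 27 of 31 with -0.032, beside 50% and 53.4% of all probe sets with medians of -0.000 and -0.004.

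The change at 30 min was tested against that at later times. For Apold1, the effect of retrieval (RT30 against CC30) exceeded that of training at 4 h (FC4 against CC4) by 0.54 (SE 0.10, adjusted p = 0.00705), where 0.0394% of all probe sets were higher in this test. It sets retrieval against training, so event and time both differ. The effect at FC30 exceeded that at 12 h by 0.46 (SE 0.10, adjusted p = 0.0489, background 0.0675%), and that at 4 h by 0.47, which was not called (adjusted p = 0.112). No member was called in this last test, where 0.045% of all probe sets were, and 5 had an unadjusted p under 0.05. Sox18 had -0.31 there (adjusted p = 0.255), -0.35 for retrieval against 4 h (adjusted p = 0.317) and -0.18 for FC30 against 12 h (adjusted p = 0.71), so its fall is not shown to be limited to 30 min.

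The second question was how the barrier genes differ with time of day in untrained mice. Between CC30 and CC4, both in the light, Cldn5 fell and no other member was called. In the dark 4 of the 5 transporters were above their CC30 level and 2 above their CC4 level, and Pecam1 was below CC30 and Tie1 below CC4. Of all probe sets, 2.05% rose and 1.44% fell against CC30, and 2.54% rose and 2.47% fell against CC4.

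In CC4 mice Cldn5 ran from 8.58 to 8.90 (median 8.73), and 8 of 9 were below every CC30 mouse. Cldn5 fell by 0.31 (SE 0.05, 1.24-fold, adjusted p = 0.0202), where 0.0478% of all probe sets fell. This was the lowest group mean of Cldn5 and CC30 the highest, and FC24 mice, dissected at the same time of day as CC30, had a median of 9.06 as CC30 did. Sox18 had -0.16 (adjusted p = 0.632) and Kdr -0.14 (adjusted p = 0.884). Trained mice of the same times of day were compared as FC4 against FC24, which differ in time since training too, and this cannot be told apart from time of day. They gave a Cldn5 value of 8.65 to 8.99 in FC4 (median 8.82) and a difference of -0.23 (SE 0.05), with 9 of 9 FC4 mice below the FC24 mean. It was not called (adjusted p = 0.124), and passed in 6 of 11 other settings (adjusted p = 0.033 to 0.425 over the 11). There 0 of 31 members and 0.112% of all probe sets were called, 5 members had an unadjusted p under 0.05, and Sox7 and Kdr had -0.17 and -0.16. Between these comparisons, which share no array, 18 of 31 members had the same sign (54.7% of all probe sets). The correlation was 0.62 across members and 0.11 across all. Since the list was drawn up with earlier results of these data known, these values are descriptions.

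**Figure D3:**
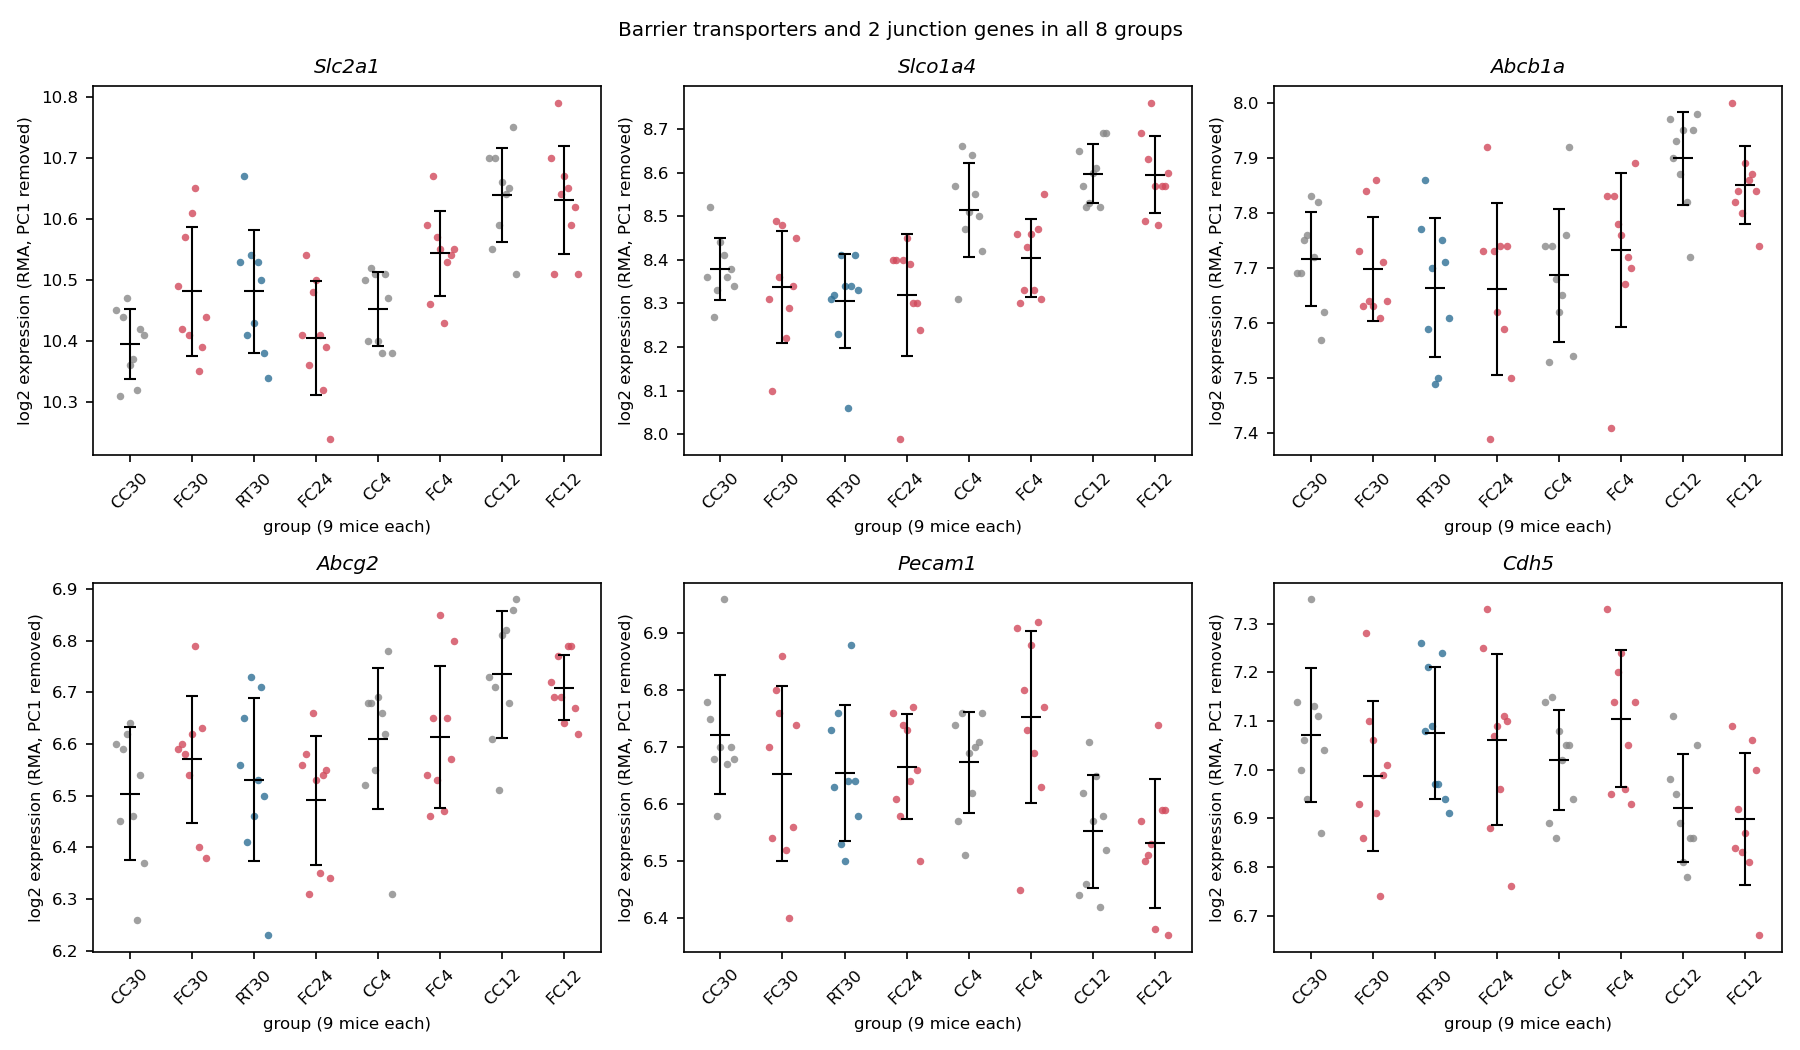
Log2 expression of Slc2a1, Slco1a4, Abcb1a, Abcg2, Pecam1 and Cdh5 (y axis, RMA with PC1 removed, each panel with its own scale) in every mouse of the 8 groups (x axis). Dots are mice (grey untrained, red fear conditioned, blue retrieval), and bars are the mean ± SD of 9 mice. The transporters are highest in CC12 and FC12, the groups of the dark period, where Pecam1 and Cdh5 are lowest.

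Slc2a1, the glucose carrier, ran from 10.31 to 10.47 in CC30 mice (median 10.41), from 10.38 to 10.52 in CC4 mice (median 10.47) and from 10.51 to 10.75 in CC12 mice (median 10.65). Every CC12 mouse was above every CC30 mouse. It was 0.24 higher in CC12 than in CC30 (SE 0.03, 1.18-fold, adjusted p = 7.73e-04) and 0.19 higher than in CC4 (SE 0.04, adjusted p = 0.0042). Both calls held in all 11 settings.

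The drug pump Abcb1a, which encodes P-glycoprotein, had medians of 7.72 in CC30 (7.57 to 7.83), 7.68 in CC4 (7.53 to 7.92) and 7.93 in CC12 (7.72 to 7.98). It was 0.18 higher in CC12 than in CC30 (SE 0.04, adjusted p = 0.022) and 0.21 higher than in CC4 (SE 0.05, adjusted p = 0.019), with 9 of 9 CC12 mice above the mean of either group. The call against CC30 ended when the first 2 components were removed (adjusted p = 0.133).

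Slco1a4, an organic anion carrier, had medians of 8.36 in CC30 (8.27 to 8.52), 8.51 in CC4 (8.31 to 8.66) and 8.60 in CC12 (8.52 to 8.69), and 8 of 9 CC12 mice exceeded all CC30 mice. It was 0.22 higher in CC12 than in CC30 (SE 0.03, adjusted p = 0.00222). Against CC4 it had 0.08 and was not called. The pump Abcg2 had medians of 6.54 in CC30 (6.26 to 6.64), 6.66 in CC4 (6.31 to 6.78) and 6.73 in CC12 (6.51 to 6.88). It was 0.23 higher in CC12 than in CC30 (SE 0.06, adjusted p = 0.0399) and had 0.12 against CC4 (adjusted p = 0.358). Its call against CC30 ended with local false discovery rates on the t-test of the methods (0.126). Slco1c1 had 0.09 and 0.08, neither called.

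Pecam1, an adhesion molecule of endothelial contacts, had medians of 6.70 in CC30 (6.58 to 6.96), 6.70 in CC4 (6.51 to 6.76) and 6.57 in CC12 (6.42 to 6.71). It fell by 0.17 from CC30 to CC12 (SE 0.05, adjusted p = 0.0777) and had -0.12 from CC4 (adjusted p = 0.183). The fall was not called without the 6 arrays that stood apart (adjusted p = 0.11) or with local false discovery rates (0.424). Tie1 ran from 6.50 to 6.73 in CC4 (median 6.66) and from 6.44 to 6.60 in CC12 (median 6.53). It fell by 0.12 (SE 0.03, adjusted p = 0.0643), a call that held in 7 of 11 settings (adjusted p = 0.0191 to 0.257). Against CC30 Tie1 had -0.11 in CC12 and was not called (adjusted p = 0.317). Cdh5 had -0.15 in CC12 against CC30 (adjusted p = 0.231) and -0.10 against CC4 (adjusted p = 0.391), neither called. Cldn5 had -0.18 in CC12 against CC30 (adjusted p = 0.109) and 0.13 against CC4 (adjusted p = 0.265), and Ocln 0.13 in both (adjusted p = 0.104 and 0.128).

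In CC12 against CC30, then, 4 members rose and 1 fell, where 2.05% and 1.44% of all probe sets did. In CC12 against CC4, 2 rose and 1 fell, where 2.54% and 2.47% did. In each, 5 of 5 transporters lay above 0, with a median of 0.219 against CC30 and 0.125 against CC4, beside -0.003 and -0.004 for all probe sets. These comparisons share the CC12 mice, and 1 fall among 31 members is near the shares of all probe sets given here.

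In trained mice, FC12 against FC4, time of day cannot be told apart from time since training. There 1 member rose and 2 fell, where 2.51% and 1.71% of all probe sets did. Slco1a4 had medians of 8.43 in FC4 (8.30 to 8.55) and 8.57 in FC12 (8.48 to 8.76) and was 0.19 higher (SE 0.04, adjusted p = 0.0186). Pecam1 ran from 6.45 to 6.92 in FC4 (median 6.77) and from 6.36 to 6.74 in FC12 (median 6.53), and fell by 0.23 (SE 0.06, adjusted p = 0.0579). Cdh5 ran from 6.93 to 7.33 in FC4 (median 7.14) and from 6.66 to 7.09 in FC12 (median 6.87), and fell by 0.21 (SE 0.06, adjusted p = 0.0939). All 9 FC12 mice were below the FC4 mean of both genes. Local false discovery rates ended all 3 calls (0.16, 0.484 and 0.64), and that of Cdh5 held in 5 of 11 settings. Abcb1a, Abcg2, Slc2a1 and Slco1c1 had 0.12, 0.10, 0.09 and 0.03, not called. The changes from the light to the dark in untrained (CC12 against CC4) and trained mice (FC12 against FC4) share no array, and 23 of 31 members had the same sign in both, beside 63.0% of all probe sets. Their correlation was 0.73 across members and 0.42 across all probe sets. This too describes a list drawn up with earlier results of these data known.

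**Figure D4:**
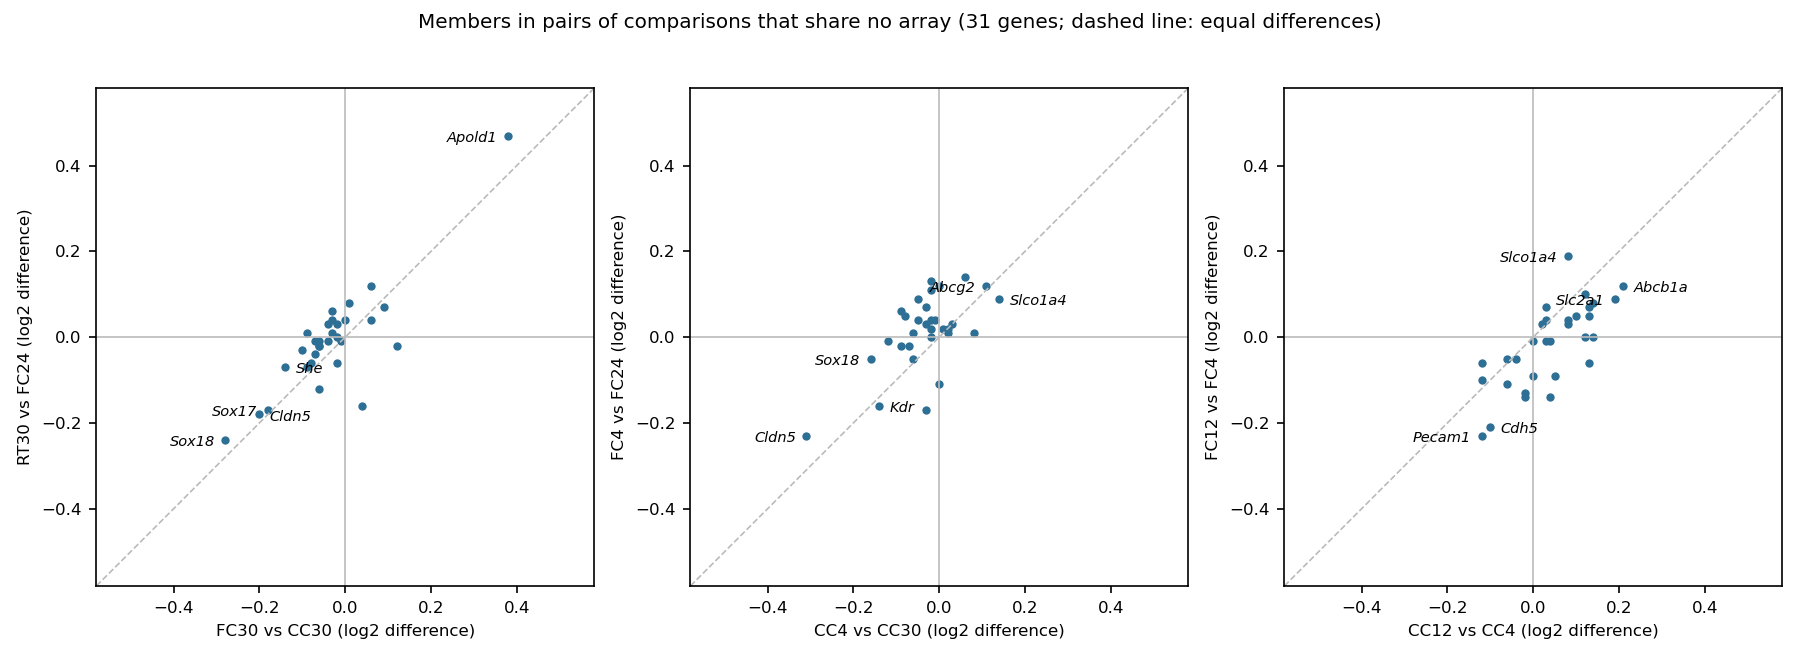
Log2 differences of the 31 genes in 3 pairs of comparisons that share no array, 1 gene a dot, with the dashed line at equal differences and the 5 genes with the largest summed size named. Left, FC30 vs CC30 (x) and RT30 vs FC24 (y), with Apold1 high and Sox18 low on both axes. Middle, CC4 vs CC30 and FC4 vs FC24, with Cldn5 lowest on both. Right, CC12 vs CC4 and FC12 vs FC4, with transporters at the upper right and Pecam1 and Cdh5 at the lower left.

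A further 60 endothelial genes, 59 of them measured, were listed beside the members. In FC30 against CC30 none was called in limma. In RT30 against CC30 1 rose (0.186% of all probe sets did), Klf2, a flow-responsive factor (0.21, SE 0.04, adjusted p = 0.0712). In RT30 against FC24 1 rose (0.121% of all probe sets did), Gimap6, a small GTPase-like protein (0.19, adjusted p = 0.0831). Their medians were -0.004 in FC30 and -0.01 in RT30. In CC12 against CC30, 2 rose and 3 fell, where 2.05% and 1.44% of all probe sets did. Mfsd2a, the carrier of docosahexaenoic acid across the barrier, was 0.51 higher (SE 0.04, adjusted p = 1.36e-06), and the pump Abcc4 had 0.18. Mmrn2, of the vascular matrix, had -0.20, the glutamine carrier Slc38a3 -0.19 and Cd93 -0.18. Mfsd2a also had 0.55 in CC12 over CC4 (adjusted p = 2.37e-07), 0.36 in FC12 over FC4 (adjusted p = 5.07e-05) and, within the light, 0.21 in FC4 over FC24 (adjusted p = 0.0228), all 3 called. In CC12 against CC4, 4 of the 59 fell (2.47% of all probe sets did), Mmrn2 (-0.31), Tfrc, the transferrin receptor (-0.22), Slc38a3 (-0.20) and Podxl (-0.17). In FC12 against FC4, 4 fell (1.71% of all probe sets did), Podxl and Slc38a3 (-0.27 each), Cd93 (-0.20) and Icam2 (-0.17).

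Of 15 ligands and co-receptors of the VEGF, angiopoietin, TGF-beta and Wnt pathways, none was called after training or retrieval. From the light to the dark, Wnt7a, which maintains the barrier, had 0.32 in CC12 over CC4 (adjusted p = 0.046) and 0.24 in FC12 over FC4 (adjusted p = 0.0332), both called. The semaphorin receptor gene Plxnd1 fell by 0.19 in the former (adjusted p = 0.0353). In the latter Bmp6 fell by 0.39 (adjusted p = 0.0391), and Vegfc and Ndp, the ligand norrin, were 0.17 and 0.14 higher (adjusted p = 0.0989 and 0.0608).

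Markers of neighbouring cell types moved with some of these comparisons. Of 14 mural cell genes none was called in FC30 or RT30 against CC30 (medians 0.011 and 0.014). In CC12 against CC30, 4 of 14 fell, Mcam (-0.39), Vtn (-0.19), Kcnj8 (-0.17) and Pdgfrb (-0.14), where 1.44% of all probe sets did. In CC12 against CC4 all 14 lay below 0, beside 52.4% of all probe sets, and Mcam fell by 0.35 (adjusted p = 3.74e-04). In FC12 against FC4, Vtn fell by 0.30 and Mcam fell by 0.21. The log2 of the summed mural level was 11.08 to 11.41 in CC30, up to 11.38 with a median of 11.17 in CC4, 10.93 to 11.21 in CC12, 11.05 to 11.55 in FC4 and 10.90 to 11.24 in FC12. Mcam is made by endothelial cells too. Pecam1 was called lower in CC12 against CC30 and in FC12 against FC4, Tie1 in CC12 against CC4 alone and Cdh5 in FC12 against FC4 alone. The part of mural cells in these falls was not tested.

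Choroid plexus, which lies beside the hippocampus, can come along in dissection. Of its 10 markers 9 were measured and none was called in any comparison. Their median difference was 0.355 in FC30, 0.032 in RT30, 0.322 in CC4 and 0.396 in CC12 against CC30, and -0.169 in RT30 against FC24. Their summed log2 level ran from 8.88 to 11.81 in CC30, from 9.22 to 12.04 in FC30, from 8.91 to 11.42 in RT30, from 9.23 to 12.39 in CC4, from 9.18 to 12.76 in CC12 and from 9.09 to 12.43 in FC24. RMA values hold no 0, so no marker could be called absent. The part of choroid plexus in the members' values, the transporters' in CC12 among them, was not tested.

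Of the remaining cell types, the 4 measured markers of red blood cells had medians of 0.031 in FC30 and -0.03 in RT30, and 10 astrocyte markers -0.014 and -0.02, none of them called. In the dark single markers were called. Of the astrocyte markers, Fgfr3 and Gjb6 had 0.24 and 0.18 in CC12 against CC30 and 0.26 and 0.29 against CC4, and in FC12 against FC4 Fgfr3 had 0.22 and the water channel gene Aqp4 -0.13. Of 8 oligodendrocyte markers, the myelin gene Opalin had -0.62, -0.70 and -0.52 in these 3 comparisons, and Cldn11 had 0.16 in the last. Of 9 microglia markers Cx3cr1 had -0.25 in CC12 against CC30 and -0.20 against CC4, and of the red blood cell markers Alas2 had 0.34 against CC4. None of 10 markers of meningeal fibroblasts was called, but 9 of 10 lay below 0 in FC12 against FC4 (median -0.19), where their summed log2 level ran from 10.50 to 11.41 in FC4 and from 10.66 to 11.22 in FC12. The part of these cell types in the members' values of the dark period was not tested.

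Between mice of the same group the members varied together. With group means removed, the 465 pairs of members had a median correlation of 0.30 over the 72 arrays, and 92.7% lay above 0. The median correlation of members with all other probe sets was 0.01. Without the 6 arrays that stood apart the median was 0.31. The closest pairs were Flt1 with Egfl7 (0.75), Cdh5 with Ptprb (0.73), Esam with Egfl7 (0.70) and Cdh5 with Vwf (0.70). The lowest medians with the rest of the list were those of Apold1 (0.05) and Sox7 (0.06), while Sox18 had 0.37 and Cldn5 0.33. The points are mice whose arrays were hybridised together, and the amount of vessel in each dissection was not measured.

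**Figure D5:**
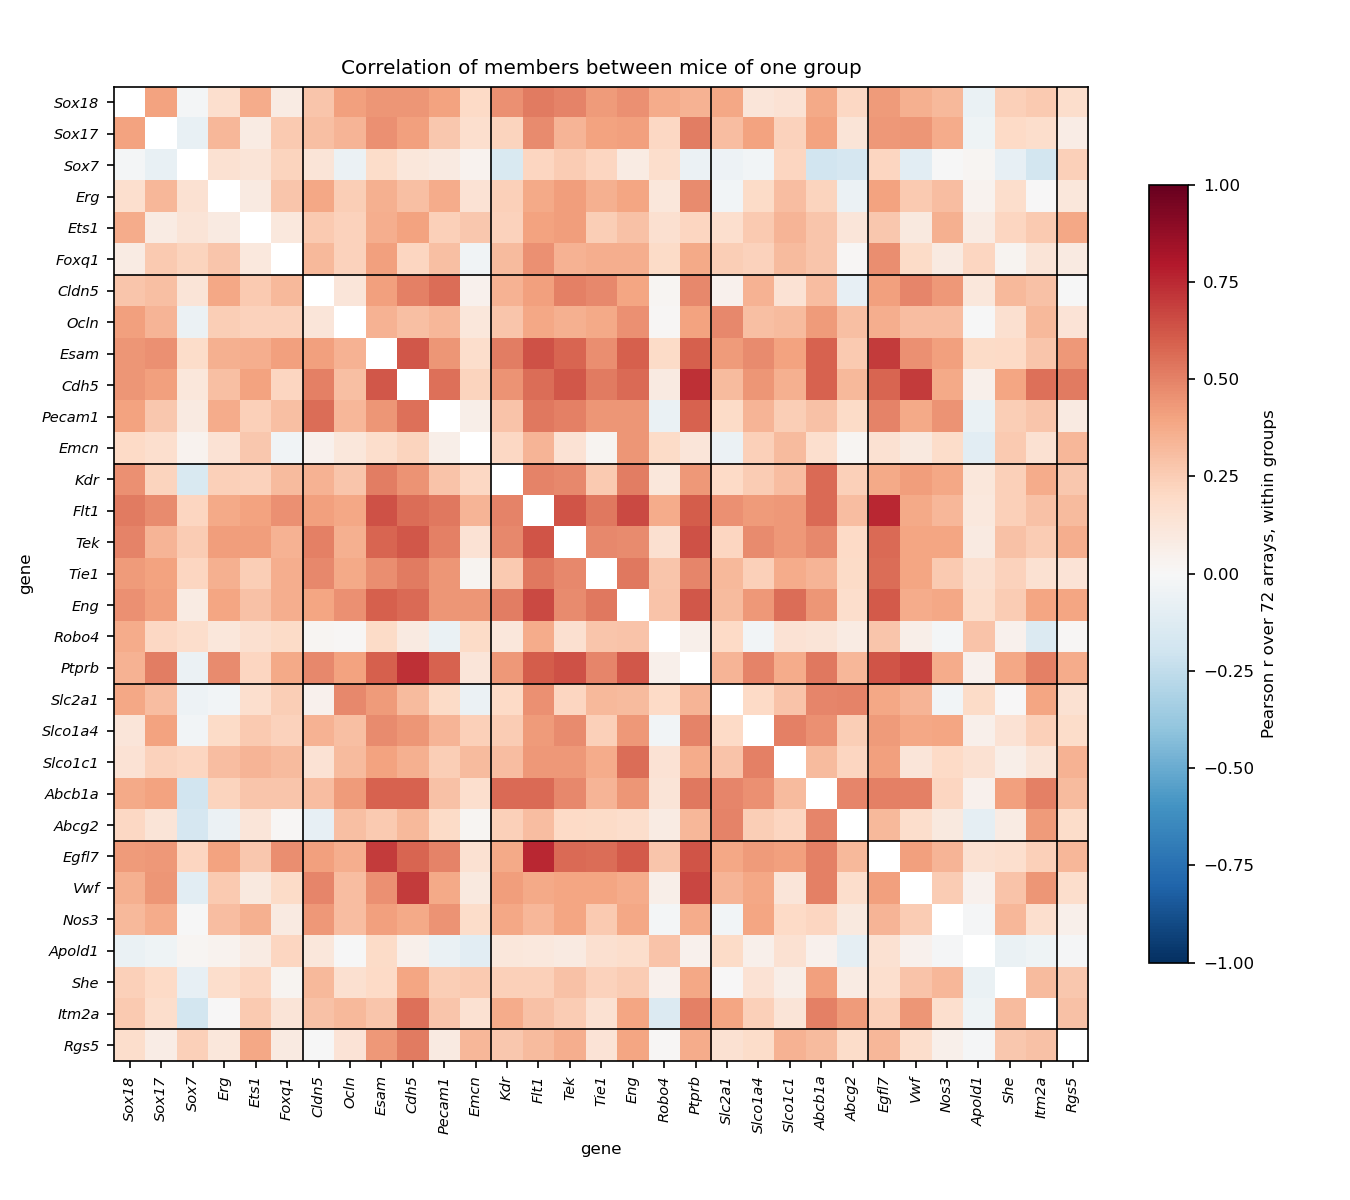
Pearson correlation of each pair of the 31 genes over 72 arrays with group means removed (rows and columns are genes in order of role, colour from -1 to 1, diagonal left blank). Most cells are red, with the rows of Apold1 and Sox7 near white.

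Over the 8 groups, Apold1 had the widest range of group means (0.52, from FC12 to RT30, with a median SD of 0.13 within groups), followed by Sox17 (0.34, SD 0.15), Sox18 (0.32, SD 0.11) and Cldn5 (0.31, SD 0.10). RT30 and FC30 were the highest groups of Apold1 (means of 6.36 and 6.28, with SDs of 0.16 and 0.20) and did not differ beyond their spread, while the other 6 means lay between 5.84 and 5.98. The narrowest ranges were those of Erg, Ets1 and Itm2a (0.06 each), less than their spread between mice. Sox18 was highest in CC30 and lowest in RT30, Cldn5 highest in CC30 and lowest in CC4, and Slc2a1 lowest in CC30 and highest in CC12, so the morning controls lay at an end of the range in all 3.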

How the data were processed

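Each of 72 mice gave 1 whole-transcript array of hippocampal RNA. The authors hybridised all arrays together, averaged 2 scans and summarised them by RMA in Affymetrix Power Tools, which corrects background and quantile normalizes, so that deposited values are log2 signals (1.93 to 13.71, array medians 5.82 to 5.88, 35556 probe sets, 0 missing). Such scaling fixes each array's distribution and would hide a shift of all genes. The genome build of the array annotation is not given in the sources used here. The number of arrays limits the precision (median SE of a difference 0.049 to 0.055 for pairs of groups).

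Probe sets were named from the platform annotation: 21218 had 1 symbol, 1881 several and 12457 none. The first component of the matrix, centred on each probe set's mean, was subtracted, since the study's methods remove 1 component. Its share of the variance here (17.4%, with 7.2% for the second) is below the share those methods state, so it may not be the same component. Each pair of groups (18 arrays) was then fitted in limma 3.58.1 (R 4.3.3), and differences of effects in fits of their groups, with Benjamini-Hochberg adjustment over all probe sets and a threshold of 0.1. Each member is named, and described where called or among the 3 largest differences of a comparison. Of other lists, at most 4 called genes a comparison are named (Abcc4, Podxl in CC12 and Icam2, each the fifth of its list, were added after their values were seen). The members and lists were chosen with earlier results of these data known. The scripts were checked on simulated data. Alternatives varied the components, the samples fitted, the test (also the methods' t-test with Benjamini-Hochberg adjustment or local false discovery rates, the latter re-implemented here), weights, filters and a block. Figures were drawn in matplotlib 3.10.9.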

Additional observations from a re-analysis of the deposited data

Results flagged for a closer look

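Apold1 differed in its response between groups. The effect of retrieval exceeded that of training at 4 h by 0.54 on the log2 scale (adjusted p = 0.00705), but there event and time both differ. The effect of training at 30 min exceeded that at 12 h by 0.46 (adjusted p = 0.0489). Both differences were past the threshold in all 11 other settings. The effect of training at 30 min against that at 4 h was not called.

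In 3 of 63 sets of 9 mice for the members described, 1 mouse lay far below the others. Sox7 was 4.52 in CC4 mouse 8, an array that also stood apart on the second component, where the next mouse had 4.90. Kdr was 5.39 in CC4 mouse 9, with 5.79 next. She was 5.50 in CC12 mouse 7, with 5.71 next. Chance alone flags about 1 in 20 such sets.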

How the results depend on the processing

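None of the members' values under test changed sign under these alternatives. Of 462 values of members in a comparison under another setting, 423 kept their side of the threshold, 31 lost it and 8 gained it. The number of members called in FC30 against CC30 (2) was 1 with no component removed and 1 in the methods' t-test with Benjamini-Hochberg adjustment. In CC12 against CC30 (5) it was 3, in FC12 against FC4 (3) it was 0, and in the test of FC30 against 12 h (1) it was 2, all with local false discovery rates. FC4 against FC24 (0) gave 1, always Cldn5, with the first 2 components removed, all 8 groups in the fit, local false discovery rates, an intensity trend, array weights or the dimmest 25% of probe sets left out. RT30 against FC24 (2) gave 1 with the first component as a covariate. In the test of FC30 against 4 h (0) there were 2 with the first 2 components removed and 1 with all 8 groups, without the dimmest 25% or without the 6 arrays that stood apart. In that of RT30 against 4 h (1) there were 2 with the first 2 components removed and with all 8 groups.

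Replicate numbers were not taken as pairs, since same-numbered mice had mean correlations of -0.018 to 0.109 by comparison (-0.164 to 0.376 for single pairs). Mice of other numbers had means of -0.013 to 0.002. The highest same-number means were 0.109 in FC4 against CC4 and 0.082 in RT30 against FC24. In each of these, 3 of 9 pairs were over 0.1. With the replicate block the members called were 1 in FC30 and 1 in RT30 against CC30, 0 in CC4 against CC30, 2 in CC12 against CC30, 1 in FC12 against FC4 and 1 in RT30 against FC24. The calls that ended were Apold1 in FC30 (adjusted p = 0.107), Sox18, Cldn5 and She in RT30 against CC30 (0.173, 0.307 and 0.272), Cldn5 in CC4 (0.225) and in RT30 against FC24 (0.168), Pecam1, Abcb1a and Abcg2 in CC12 against CC30 (0.128, 0.121 and 0.11), Tie1 in CC12 against CC4 (0.163), and Cdh5 and Pecam1 in FC12 against FC4 (0.121 and 0.119). The probe sets called fell from 91 to 43, from 99 to 47, from 26 to 0, from 1243 to 705, from 1500 to 927 and, in FC4 against FC24, from 40 to 9. Local false discovery rates called 190 probe sets in RT30 and 159 in CC4 against CC30, 125 in FC4 and 135 (main 54) in RT30 against FC24, 49 (main 31) in the test of FC30 against 12 h, and 18, 28, 19 and 21 where the main count was 0 (FC4, FC12, FC24 and RT30 against FC30), but 618 in CC12 against CC30, 1151 (main 1782) in CC12 against CC4 and 369 in FC12 against FC4. All 8 groups in the fit gave 149 in RT30 and 108 in CC4 against CC30, 2810 in CC12 against CC4, 25 (main 16) in the test of FC30 against 4 h, and 2 and 1 in FC4 and FC24. Removal of 2 components gave 47 in CC4 against CC30, 2862 in CC12 against CC4, 62 in FC4 against FC24 and 2 in FC4 against CC4. Without the 6 arrays CC12 against CC30 had 822. In data simulated for FC30 against CC30 with nothing changed, local false discovery rates called 32 probe sets and limma 0. The causes of these differences in count were not tested. Signals near background compress a change, and detection above background was not analysed here.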
